A study of Mus musculus with 4 samples.

Results

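The genes of cholesterol synthesis and fatty acid synthesis, with the SREBP factors that control them, were examined in mouse embryonic stem (mES) cells after depletion of Zfp322a. The set was a list of 43 gene names that follows the pathway through the mevalonate steps, the sterol ring, SREBP control, uptake, export and fatty acids. A probe set, the group of array probes that reads 1 transcript, belonged to it where its single gene symbol in the array annotation was a listed name. This found 93 probe sets for 40 of the 43 genes, out of 45037 probe sets and 18193 genes in all, and Acat2, Soat1 and Nr1h2 had none. The pathway was proposed with results of these same arrays known. The changes given here are therefore a description of these arrays and no independent evidence on the pathway.

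The samples were 2 arrays of E14 cells that carried a pSuper.puro plasmid expressing an shRNA against Zfp322a (Zfp322a RNAi). With them were 2 arrays of E14 cells that carried a control plasmid (control RNAi). For the arrays the methods of the study describe a control shRNA plasmid. Its figure legends name the empty pSuper.puro vector as control in other assays. E14 is an established mES line, cultured in medium with serum and leukaemia inhibitory factor. All samples were kept under puromycin, for 3 days per the labels and for longer per the methods of the study. The study made more than 1 shRNA, and the sources used here do not say which of them the arrays used. Nor do they tell if both samples of 1 group came from separate cultures; the p-values reflect only how far these samples scatter, which may be technical.

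Cells build cholesterol from acetyl-CoA through mevalonate, squalene and a series of sterol rings, and they build fatty acids from the same precursor. SREBP proteins lie in the membrane of the endoplasmic reticulum bound to Scap. When sterols are scarce, Scap carries them to the Golgi, where proteases release a fragment that enters the nucleus and switches on most enzymes of both routes. When sterols are plentiful, Insig proteins hold Scap and SREBP back, and oxidised sterols activate LXR receptors, which switch on export. SREBP binds sterol regulatory elements in promoters, commonly beside an NF-Y box.

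Promoters are shown for 6 genes from several steps of the pathway, chosen after their values were seen. Hmgcs1 and Mvk are mevalonate enzymes, Tm7sf2 a sterol ring enzyme, Fasn the fatty acid synthase and Insig1 a feedback gene, and all 5 fell after depletion; Abca1, an export gene, rose. The sequences are the RefSeq windows of 250 bases before and 50 after an annotated start site, in build GRCm38.p6, read 5′ to 3′ on the strand of the gene. Capitals mark the NF-Y box (CCAAT, or ATTGG for its reverse) and a form of the sterol regulatory element (TCACNCCAC, or GTGGNGTGA for its reverse). All 5 genes that fell hold the box here, but only Hmgcs1 holds the sterol element form. Acaca and Fads2 fell too, had no box in their windows and are not shown.
Hmgcs1, chr13:119690101-119690400, plus strand: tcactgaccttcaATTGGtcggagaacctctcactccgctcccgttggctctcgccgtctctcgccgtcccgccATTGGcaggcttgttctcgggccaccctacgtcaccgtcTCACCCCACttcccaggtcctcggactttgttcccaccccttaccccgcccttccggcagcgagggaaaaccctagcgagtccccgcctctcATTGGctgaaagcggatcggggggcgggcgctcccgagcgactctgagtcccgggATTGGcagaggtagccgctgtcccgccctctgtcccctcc
Mvk, chr5:114444019-114444318, plus strand: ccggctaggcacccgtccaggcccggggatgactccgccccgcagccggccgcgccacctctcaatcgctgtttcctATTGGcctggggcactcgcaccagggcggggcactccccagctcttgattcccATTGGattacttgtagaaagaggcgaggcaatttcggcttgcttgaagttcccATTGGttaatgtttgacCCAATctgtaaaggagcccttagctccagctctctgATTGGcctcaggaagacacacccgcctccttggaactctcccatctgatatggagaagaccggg
Tm7sf2, chr19:6067801-6068100, minus strand: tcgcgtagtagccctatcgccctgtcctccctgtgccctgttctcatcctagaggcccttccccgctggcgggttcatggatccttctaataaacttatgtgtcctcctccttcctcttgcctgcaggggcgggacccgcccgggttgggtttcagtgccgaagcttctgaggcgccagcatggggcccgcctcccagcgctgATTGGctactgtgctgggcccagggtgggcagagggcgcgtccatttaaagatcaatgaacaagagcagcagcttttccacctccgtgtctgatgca
Fasn, chr11:120824498-120824797, minus strand: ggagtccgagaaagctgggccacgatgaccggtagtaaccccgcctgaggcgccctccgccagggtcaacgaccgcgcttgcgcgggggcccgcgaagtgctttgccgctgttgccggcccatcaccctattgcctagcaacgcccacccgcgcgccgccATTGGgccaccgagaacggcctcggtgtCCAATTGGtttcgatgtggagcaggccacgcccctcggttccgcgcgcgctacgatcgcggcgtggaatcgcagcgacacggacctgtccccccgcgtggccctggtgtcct
Insig1, chr5:28071162-28071461, plus strand: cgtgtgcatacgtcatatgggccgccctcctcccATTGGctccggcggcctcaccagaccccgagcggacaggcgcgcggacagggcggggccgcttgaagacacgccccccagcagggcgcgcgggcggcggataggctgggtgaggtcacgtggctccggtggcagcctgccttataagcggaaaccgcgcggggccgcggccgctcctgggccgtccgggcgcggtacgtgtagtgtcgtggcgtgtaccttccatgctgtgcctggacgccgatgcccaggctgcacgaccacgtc
Abca1, chr4:53159846-53160145, minus strand: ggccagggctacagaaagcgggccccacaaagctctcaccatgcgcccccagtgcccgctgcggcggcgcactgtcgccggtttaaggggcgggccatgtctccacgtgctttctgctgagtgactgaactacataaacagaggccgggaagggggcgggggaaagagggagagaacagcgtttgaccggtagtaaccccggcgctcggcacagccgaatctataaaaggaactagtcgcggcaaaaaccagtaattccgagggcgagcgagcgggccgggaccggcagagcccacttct

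Windows were found for 34 of the 43 genes. The NF-Y box letters stood in a window of 26 of the 34 genes (76.5%), against 41.1% of all 27025 genes with a window and 42.0% of the 14452 that were also measured on the arrays. Among the members that fell and had a window, 16 of 18 held the box. Of those that did not pass the test 8 of 10 did, and of those that rose and those without a probe set 1 of 3 each. The sterol element form was found in 1 of the 34 genes, Hmgcs1, where it began at base -137 from the start site, and 1.44% of all genes with a window held it. The E-box CACGTG, which SREBP1 can also bind, stood in 7 of the 34 genes (20.6%) and in 8.09% of all genes with a window. Among the 14452 that were also measured on the arrays, 10.2% held it. No test was made of these shares. Both strands were searched, and a match of letters is a description, not a binding site. In Fasn a forward and a reverse NF-Y box overlap.

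**Figure D1:**
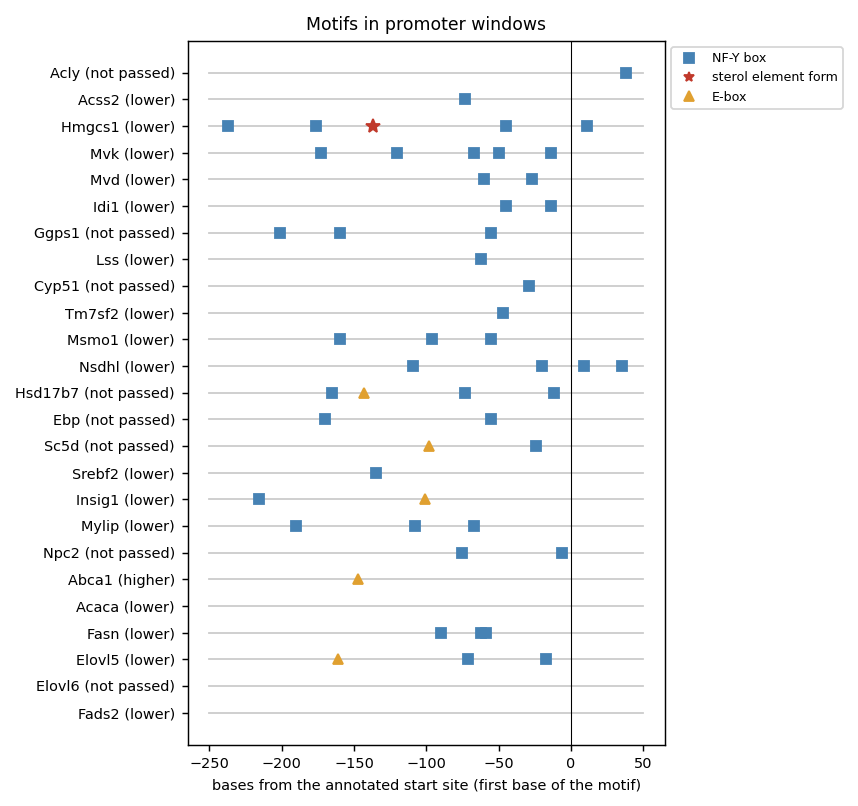
Position of the first base of each NF-Y box (square), sterol element form (star) and E-box (triangle) in bases from the annotated start site (x axis), for the 25 measured genes with exactly 1 promoter window (y axis, with the outcome of the test in brackets). The star lies at -137 in Hmgcs1, and most squares lie upstream of the start site.

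Most enzymes of the pathway were lower in Zfp322a RNAi cells. Of the 40 measured genes, 25 fell, 3 rose and 12 did not pass an adjusted p of 0.05, computed with limma over all 18193 genes. Over all genes 14.4% were called lower and 14% higher. The median change of the 40 genes was -0.44 on the log2 scale, where a change is the mean log2 level of Zfp322a RNAi minus that of control RNAi, and the median of all genes was -0.04. Adjusted p-values of the 25 falls ran from 8.75e-04 to 0.0443, and the levels left ran from 41.0% to 80.9% of control. Both knock-down arrays lay below both control arrays for 28 of the 40 genes, as they did for 35.8% of all genes, and above both for 6, as for 26.8%. For all 25 falls and all 3 rises the groups did not overlap. Leaving out any 1 array could therefore not turn their direction, and the kept direction adds nothing. The calls at the adjusted p did not hold with 3 arrays, where 1 group is a single array, for members and all other genes alike. By a plain 1.5-fold difference of means, the criterion in the methods of the study, 14 members were lower and 1 was higher (3.20% and 5.06% of all genes).

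**Figure D2:**
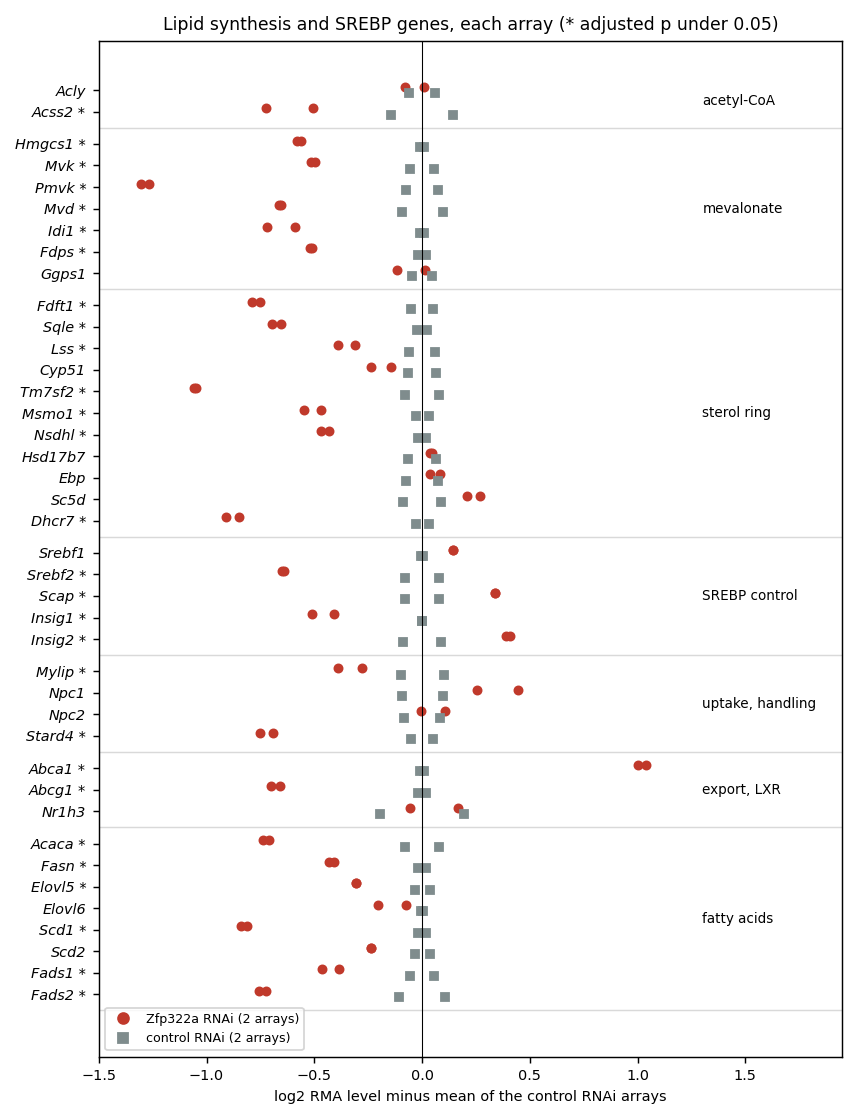
Distance of each array from the control RNAi mean on the log2 RMA scale (x axis) for the 40 measured genes (y axis, in pathway order, with an asterisk where the adjusted p was under 0.05). Red circles are Zfp322a RNAi arrays and grey squares control RNAi arrays; the circles lie left of both squares for 28 genes and right of both for 6.

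Zfp322a itself stood at log2 levels of 7.53 and 7.13 on the Zfp322a RNAi arrays, against 8.75 and 8.84 on the control RNAi arrays, which left 36.2% of the control level. The mES markers Pou5f1, Nanog, Sox2 and Zfp42 were at 12.5 to 12.9 on all 4 arrays, far above the array medians of 6.07 to 6.11, as the labelled cell type has them. Of 9 mES markers 4 fell, namely Esrrb, Tdgf1, Utf1 and Tcl1, and none rose. Pou5f1, Nanog, Sox2, Zfp42 and Dppa5a did not pass the test. The summed linear level of the 9 was 54381 and 54388 on the knock-down arrays and 61698 and 60083 on the control arrays. Of 10 endoderm markers 7 rose, led by Gata6 (1.42 ± 0.08), with a summed level of 877 and 868 on the knock-down arrays and of 609 and 617 on the control arrays. The endoderm markers Afp, Gata4 and Hnf4a did not pass the test, and Afp stayed between 4.83 and 5.09. Fibroblast and feeder markers summed to 447 and 463 on the knock-down arrays and to 591 and 579 on the control arrays. Of 9 of them Thy1 and Pdgfrb fell and 7 did not pass. In percent, 44.4% of mES markers and 22.2% of fibroblast and feeder markers fell, beside 14.4% of all genes. Of the endoderm markers 70% rose, beside 14% of all genes. The sum of each marker list weighs bright probe sets most, so a few genes can set it, and it measures no share of cells. The part of marker shifts in the results below was not tested. In bulk samples, fewer cells that make an mRNA and less of it per cell cannot be told apart. Levels of different probe sets are not comparable with each other, so that genes are compared here by their changes only.

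Acetyl-CoA, the starting point, comes from 2 enzymes on the list. Acss2, which makes it from acetate, stood at 7.27 and 7.05 on the Zfp322a RNAi arrays, against 7.92 and 7.63 on the control RNAi arrays, and fell to 65.3% of control (-0.61 ± 0.12 SE, adjusted p = 0.0159 with limma). The groups did not overlap, and a second probe set of Acss2 fell too (-0.47). Acly, which makes acetyl-CoA from citrate, gave 11.94 and 11.85 against 11.99 and 11.87 in control cells, so that the groups overlapped (-0.03, 95% interval -0.23 to 0.16). Among 5 dimmer Acly probe sets, 1 passed the test upward (0.45, limma adjusted p = 0.0412, adjusted across every probe set), and the other 4 did not pass.

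The mevalonate route was lower at 6 of its 7 measured steps, beside 14.4% called lower over all genes. These 6 falls had adjusted p between 8.75e-04 and 0.00532 with limma. The fall of Pmvk, the phosphomevalonate kinase gene, was the furthest of the whole list. Its levels were 8.29 and 8.25 on the Zfp322a RNAi arrays, against 9.48 and 9.63 on the control RNAi arrays, which left 41.0% (-1.28 ± 0.08). Hmgcs1, the cytosolic HMG-CoA synthase gene whose promoter carries the sterol element form, read 11.13 and 11.11 after depletion and 11.70 and 11.68 in control cells (-0.57 ± 0.07). This fall is uncertain, since 4 further Hmgcs1 probe sets, 2 of them nearly as bright, did not pass the test (-0.81 to -0.03), although all 4 changes were below 0. Mvk, mevalonate kinase, read 7.49 and 7.51 after depletion and 7.95 and 8.06 in control cells (-0.51 ± 0.07). Mvd, the decarboxylase that yields isopentenyl diphosphate, read 7.89 and 7.88 after depletion and 8.45 and 8.64 in control cells (-0.66 ± 0.09). For both kinase and decarboxylase a second probe set fell as well (Mvk -0.34, Mvd -0.52).

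The next enzymes of this route turn isopentenyl units into prenyl chains. Idi1, the isomerase, read 9.53 and 9.40 on the Zfp322a RNAi arrays and 10.13 and 10.11 on the control RNAi arrays (-0.65 ± 0.08), and its second probe set fell by 0.76. Fdps, which makes farnesyl diphosphate, read 9.60 and 9.61 after depletion and 10.10 and 10.14 in control cells (-0.52 ± 0.07), and its other, dim probe set did not pass (-0.005). Ggps1, which leads away from sterols to the geranylgeranyl groups of proteins, was the exception. It gave 8.41 and 8.28 on the knock-down arrays and 8.44 and 8.35 on the control arrays, overlapping, and none of its 4 probe sets passed (-0.05 to 0.23). The 6 listed enzymes up to farnesyl diphosphate that were measured were thus lower on their brightest probe sets, while the branch enzyme showed no detectable difference. Acat2 had no probe set, so the route was not measured whole.

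**Figure D3:**
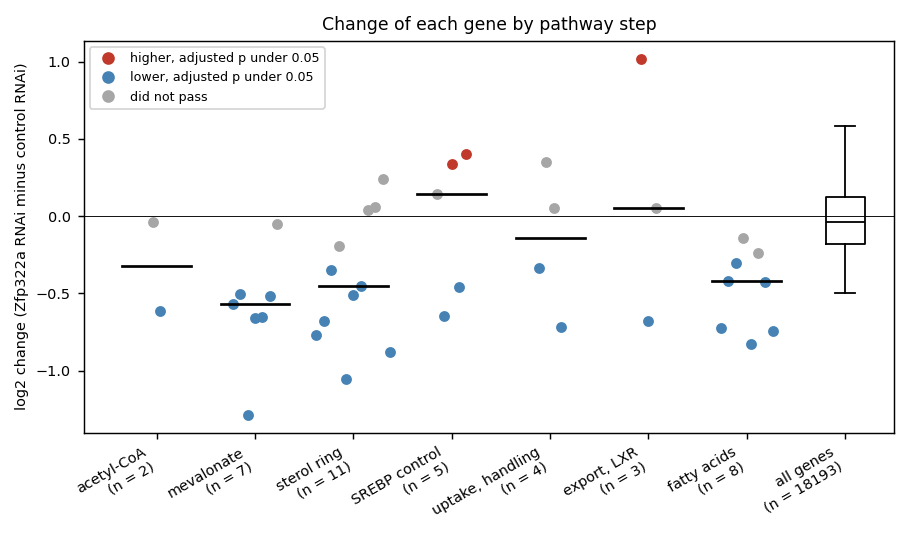
Log2 change (Zfp322a RNAi minus control RNAi, y axis) of each measured gene, grouped by pathway step (x axis), with a black line at each group median and, on the right, a box for all 18193 genes (median -0.04, quartiles -0.18 and 0.12, whiskers at percentiles 5 and 95). Blue points fell, red points rose and grey points did not pass an adjusted p of 0.05. The medians of mevalonate (-0.57), sterol ring (-0.45) and fatty acid genes (-0.42) lie below the lower quartile of all genes.

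Of 11 genes that turn farnesyl diphosphate into cholesterol, 7 fell, 0 rose and 4 did not pass the test, with a median change of -0.45. Among all genes 14.4% fell and 14% rose, with a median of -0.04. Fdft1, squalene synthase, which commits the pathway to sterols, read 9.83 and 9.79 on the Zfp322a RNAi arrays, against 10.53 and 10.63 on the control RNAi arrays (-0.77 ± 0.07, 58.6% of control, adjusted p = 0.00163 with limma). A second bright probe set of Fdft1 fell by 0.82, whereas its 2 dimmest ones, near the array median, did not pass (-0.03 and 0.01). Sqle, squalene epoxidase, read 9.20 and 9.24 after depletion and 9.92 and 9.87 in control cells (-0.67 ± 0.07, 62.6%). Lss, which folds the epoxide into lanosterol, read 8.28 and 8.20 against 8.53 and 8.65 in control cells (-0.35 ± 0.08, adjusted p = 0.0217 with limma). All 3 enzymes up to the first sterol ring were thus lower. Without the probe sets that may cross-hybridize, a dimmer one stood for Lss and the call ended at a change of the same size (-0.36, adjusted p = 0.0630 with limma).

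The enzymes that trim lanosterol did not move as a block. Tm7sf2, a sterol reductase, read 6.50 and 6.49 on the Zfp322a RNAi arrays, against 7.47 and 7.63 on the control RNAi arrays, and kept 48.1% of the control level (-1.05 ± 0.08, adjusted p = 0.00113 with limma). Dhcr7, which carries out a last reduction to cholesterol, read 8.57 and 8.51 after depletion and 9.39 and 9.45 in control cells (-0.88 ± 0.07, 54.3%). Together with Pmvk these were the furthest falls of the list. Msmo1 and Nsdhl, which take off methyl groups, fell less. Msmo1 read 9.60 and 9.52 after depletion and 10.10 and 10.04 in control cells (-0.51 ± 0.07). Nsdhl read 8.78 and 8.82 after depletion and 9.23 and 9.27 in control cells (-0.45 ± 0.07).

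The other 4 sterol ring genes did not pass the test. Cyp51, the lanosterol demethylase, read 8.44 and 8.53 on the Zfp322a RNAi arrays, against 8.61 and 8.74 on the control RNAi arrays (-0.19, 95% interval -0.39 to 0.01). A nearly as bright Cyp51 probe set passed downward (-0.34, limma adjusted p = 0.0447 across every probe set). Hsd17b7, which acts with Msmo1 and Nsdhl, read 8.18 and 8.17 against 8.20 and 8.07 (0.04, interval -0.15 to 0.23), and its other probe sets went both ways without passing. Ebp, a sterol isomerase, read 8.76 and 8.81 against 8.65 and 8.80 (0.06, interval -0.14 to 0.26). Sc5d, the desaturase that acts before Dhcr7, did not pass either. Both knock-down arrays, at 8.83 and 8.77, lay above both control arrays, at 8.47 and 8.65 (0.24 ± 0.09, adjusted p = 0.0911 with limma), and a dimmer Sc5d probe set passed upward (0.34, limma adjusted p = 0.0257 across every probe set). The intervals of Hsd17b7, Ebp and Sc5d lay above the changes of Dhcr7 and Tm7sf2, but the differences between genes were not tested.

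Genes of SREBP control moved in both directions, with 2 falls, 2 rises and 1 gene that did not pass. The shares over all genes were 14.4% lower and 14% higher. Srebf2, which encodes SREBP2, the form that mainly drives cholesterol synthesis, read 7.89 and 7.90 on the Zfp322a RNAi arrays, against 8.46 and 8.62 on the control RNAi arrays (-0.65 ± 0.08, 63.9% of control, adjusted p = 0.00339 with limma). A second probe set fell by a similar amount (-0.64). Srebf1, which encodes the SREBP1 forms that favour fatty acid synthesis, read 9.54 on both knock-down arrays and 9.40 and 9.39 on the control arrays. The arrays did not overlap, but the change was small and did not pass (0.14, interval -0.02 to 0.31). The probe set does not tell the SREBP1 forms apart as far as the annotation says. The transcript of SREBP2 was therefore lower while no fall of that of SREBP1 was detected.

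The genes that hold or move SREBP split as well. Scap, the escort, read 9.26 on both Zfp322a RNAi arrays, against 8.84 and 9.00 on the control RNAi arrays (0.34 ± 0.08, 1.27-fold, adjusted p = 0.0264 with limma). This rise rests on 1 probe set, since a dimmer one gave -0.09, and with the mean of both the call ended (0.12, adjusted p = 0.275 with limma). Insig1, itself an SREBP target and the usual feedback gene, read 9.85 and 9.75 after depletion and 10.26 on both control arrays (-0.46 ± 0.07, 72.7%, adjusted p = 0.00670 with limma). Insig2, which is not induced by SREBP, read 9.04 and 9.06 after depletion and 8.56 and 8.74 in control cells (0.40 ± 0.08, 1.32-fold, adjusted p = 0.0180 with limma). The Insig genes thus went opposite ways, and the rise of Insig2 was seen on all 3 of its probe sets (0.40 to 0.45).

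**Figure D4:**
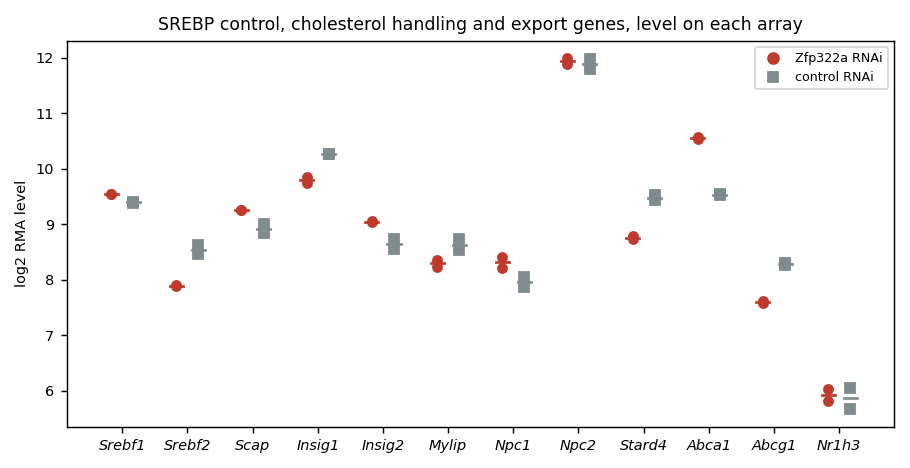
Log2 RMA level (y axis) on each array for 12 genes of SREBP control, cholesterol handling and export (x axis), with Zfp322a RNAi arrays as red circles, control RNAi arrays as grey squares and short lines at group means; overlapping points hide each other. Insig1 and Insig2 part in opposite directions, as do Abcg1 and Abca1, and levels of different genes are not comparable.

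Cholesterol enters cells with lipoproteins and leaves lysosomes through the NPC proteins. Stard4, which encodes a sterol carrier of the cytosol and is an SREBP target, read 8.73 and 8.79 on the Zfp322a RNAi arrays, against 9.53 and 9.43 on the control RNAi arrays (-0.72 ± 0.07, adjusted p = 0.00201 with limma). This fall is uncertain, since 2 dimmer Stard4 probe sets did not pass (-0.12 and -0.03). Mylip, which encodes a ubiquitin ligase that marks lipoprotein receptors for breakdown, read 8.35 and 8.24 against 8.53 and 8.73 in control cells (-0.34 ± 0.09, adjusted p = 0.0443 with limma), and its call ended with array centring (0.0632). Npc1, a lysosomal membrane protein gene, lay just outside the threshold on the other side of 0. It read 8.41 and 8.22 after depletion and 7.87 and 8.06 in control cells (0.35 ± 0.10, adjusted p = 0.0508 with limma) and passed with array centring (0.0416). Npc2, its soluble partner, read 11.88 and 11.99 against 11.80 and 11.97, overlapping (0.05, interval -0.17 to 0.27).

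The export genes went opposite ways. Abca1, which encodes the transporter that loads cholesterol onto apolipoproteins, read 10.57 and 10.53 on the Zfp322a RNAi arrays, against 9.54 and 9.52 on the control RNAi arrays. It rose 2.03-fold (1.02 ± 0.07, adjusted p = 9.78e-04 with limma), the furthest rise among the members. Its 2 other probe sets were below the array medians and did not pass (0.04 and 0.17). Abcg1, the related transporter that passes sterol to lipoprotein particles, read 7.58 and 7.62 after depletion and 8.26 and 8.30 in control cells (-0.68 ± 0.07, 62.4%, adjusted p = 0.00187 with limma), and a dimmer second probe set fell by 0.60. Both are known LXR targets, and their groups parted in opposite directions, as the plot of levels by array shows. The LXR gene that was measured, Nr1h3, read 5.81 and 6.03 against 6.06 and 5.67, below the array medians and overlapping (0.06, interval -0.30 to 0.41).

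Of 8 fatty acid genes 6 fell and 2 did not pass the test, beside 14.4% called lower over all genes. Both knock-down arrays lay below both control arrays for all 8, as they did for 35.8% of all genes. Acaca, acetyl-CoA carboxylase, the rate-limiting step, read 8.50 and 8.53 on the Zfp322a RNAi arrays, against 9.16 and 9.32 on the control RNAi arrays (-0.72 ± 0.08, 60.5% of control, adjusted p = 0.00249 with limma). Fasn, fatty acid synthase, read 9.78 and 9.76 after depletion and 10.17 and 10.21 in control cells (-0.42 ± 0.07, 74.7%). Acaca had a second, dim probe set that did not pass (-0.085), and with both averaged Acaca gave -0.41, while Fasn had 1 probe set only.

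Both elongase genes showed small changes. Elovl5, which extends polyunsaturated chains, read 11.19 on both knock-down arrays and 11.46 and 11.53 on the control arrays (-0.31 ± 0.07, adjusted p = 0.0226 with limma), and a second probe set fell by 0.36. Elovl6, which extends saturated chains, read 10.80 and 10.93 against 11.01 and 11.00 and did not pass (-0.14, interval -0.33 to 0.05).

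Of the 4 desaturase genes, whose enzymes put double bonds into chains, 3 fell. Scd1 read 8.23 and 8.26 on the Zfp322a RNAi arrays, against 9.05 and 9.09 on the control RNAi arrays (-0.82 ± 0.07, 56.4% of control, adjusted p = 0.00125 with limma), and a second probe set fell by 0.46. Scd2, its close relative, read 11.40 on both knock-down arrays and 11.67 and 11.60 on the control arrays, and lay just outside the threshold (-0.23 ± 0.07, adjusted p = 0.0514 with limma). With the mean of its 3 probe sets Scd2 passed (-0.39, adjusted p = 0.0130 with limma). Fads2, the first desaturase of polyunsaturated chains, read 7.24 and 7.27 after depletion and 7.89 and 8.10 in control cells (-0.74 ± 0.09, 59.9%), with falls on all 3 of its probe sets. Fads1, which acts after it, read 8.51 and 8.43 after depletion and 8.84 and 8.95 in control cells (-0.42 ± 0.08, 74.5%, adjusted p = 0.0107 with limma). A dimmer Fads1 probe set did not pass (-0.34, limma adjusted p = 0.0547 across every probe set).

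Further probe sets of the same genes did not always share the change of the brightest one. Why they differ was not tested, and some, such as those of Abca1, Acaca and Fdps, lie below the array medians. The 25 genes that fell had 26 other probe sets in 17 of them, of which 12 fell, 0 rose and 14 did not pass over all probe sets, and 11 of the 17 genes had at least 1 that fell. Over all 45037 probe sets 9.47% fell and 10.6% rose. When all probe sets of a gene were averaged, 7 called genes (Hmgcs1, Fdps, Fdft1, Stard4, Acaca, Abca1 and Scap) moved by over 1.5 times, all toward 0. Their values were then -0.37, -0.26, -0.40, -0.29, -0.41, 0.41 and 0.12, and the call of Scap ended.

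**Figure D5:**
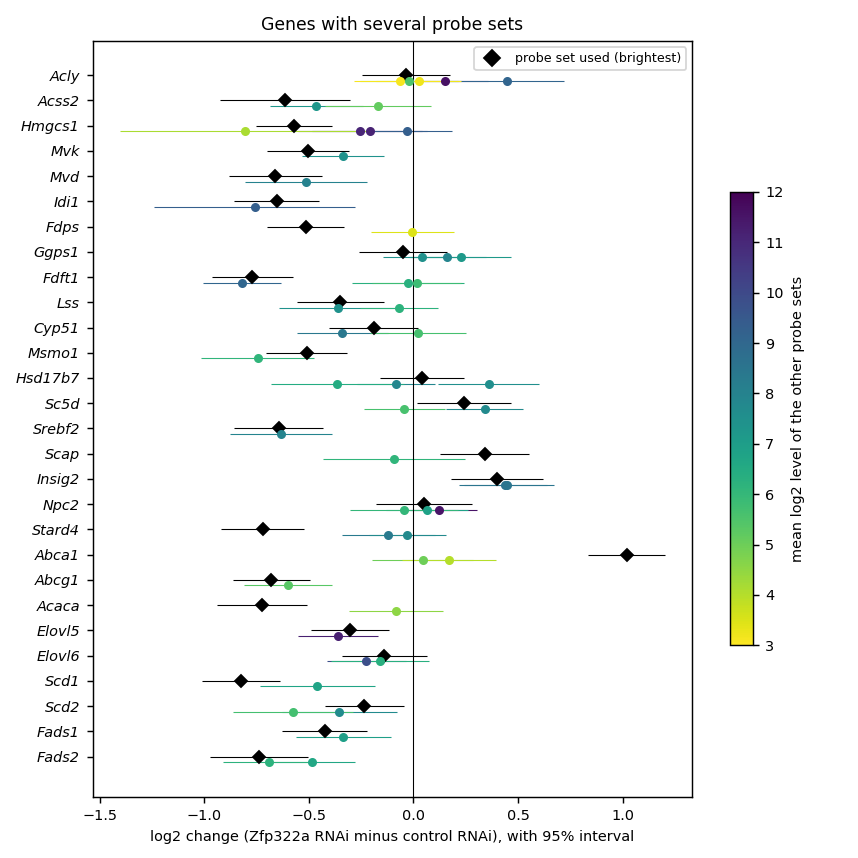
Log2 change with 95% interval (limma over all probe sets, x axis) for each probe set of the 28 genes that have several (y axis). Black diamonds are the brightest probe set, which represents the gene, and coloured points the others, shaded by mean log2 level. The probe sets of Insig2, Srebf2, Fads2 and Elovl5 lie together, while those of Hmgcs1, Stard4 and Abca1 lie apart.

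Genes around the pathway were grouped in further lists by function. Of 9 genes of SREBP processing and turnover 2 rose and 0 fell, namely Mbtps2, a Golgi protease that frees SREBP (0.40 ± 0.07), and Syvn1, a ubiquitin ligase of the endoplasmic reticulum (0.94 ± 0.09). Of 13 genes of the isoprenoid branches 2 rose and 2 fell. Coq2, of ubiquinone synthesis, fell by 0.61 and Dhdds, of dolichol synthesis, by 0.46, while Nus1, the partner of Dhdds, rose by 0.52 and Rabggtb by 0.46 on the log2 scale.

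Of 14 other genes of sterol transport and storage 2 rose and 3 fell. Vldlr, a lipoprotein receptor gene, rose 1.83-fold, with 7.63 and 7.65 on the Zfp322a RNAi arrays, against 6.76 and 6.77 on the control RNAi arrays. Osbp, a carrier of sterol between membranes, rose as well (0.46 ± 0.07). Gramd1a, a transporter of sterol from the plasma membrane (-0.74 ± 0.09), Scarb1, the receptor for high-density lipoprotein (-0.46 ± 0.08), and Acat1, a mitochondrial thiolase (-0.30 ± 0.08), fell. Of 23 other genes of fatty acid synthesis, elongation and activation 2 rose and 6 fell. Elovl4, which makes very long chains, rose 2.47-fold, with 8.30 and 8.40 on the Zfp322a RNAi arrays, against 7.08 and 7.01 on the control RNAi arrays, and Acsl4 rose 1.48-fold. Acsl6 (-0.72 ± 0.08), the enoyl reductase gene Tecr (-0.70 ± 0.08) and Slc25a1, which exports citrate from mitochondria (-0.54 ± 0.07), fell furthest. For the genes named here around the pathway, limma gave adjusted p between 8.00e-04 and 0.0427. Across all genes 28.4% passed in either direction, so that shares such as 4 of 13 or 8 of 23 stand close to that background.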

How the data were processed

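RNA of 2 Zfp322a RNAi and 2 control RNAi samples was hybridised to Affymetrix mouse genome arrays. The values deposited by the authors are log2 levels after RMA, which subtracts background, gives all arrays 1 distribution and summarises the probes of a probe set. No source used here names the RMA software or its version. Since RMA equalises the arrays, a shift of most genes in 1 direction would not show. Deposited values ran from 2.62 to 14.61 with 2 decimals. Their number, 2 arrays a group, limits the precision: the median SE of a change was 0.08, and an exact permutation test of 2 against 2 cannot go below p = 0.333. Arrays of 1 group correlated at 0.998, and arrays of different groups at 0.989 to 0.990, across probe sets.

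Of 45037 probe sets, 34945 had 1 gene symbol, 932 several and 9160 none; only the first kind was named, with 34741 symbols updated through the Entrez identifier (RefSeq, GRCm38.p6). Each gene was represented by its brightest probe set over the 4 arrays, giving 18193 genes. Changes, 95% intervals and p-values came from limma 3.58.1 under R 4.3.3 (eBayes on a fit of group alone, 2 residual degrees of freedom), with Benjamini-Hochberg adjustment over all genes, or over all probe sets where stated. Text names all members, Zfp322a and some of the marker genes. Of each surrounding list it names up to 3 of the furthest rises and 3 of the furthest falls past the adjusted p. The members and lists were chosen with earlier results of these data known. Alternatives were array centring, repeated quantile normalization, a filter on dim genes, other ways to choose probe sets, a variance trend, robust variance, the replicate number as a block, the 1.5-fold rule and leaving out each array.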

Additional observations from a re-analysis of the deposited data

How the results depend on the processing

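Counts of 25 lower and 3 higher members, of 40 measured, came with limma and all 4 arrays. Lower counts were 24 to 26 with array centring, repeated quantile normalization, dim genes left out, other probe set choices, a variance trend or robust variance, while lower calls over all 18193 genes ranged between 2216 with array centring and 3187 with a variance trend. Without the genes below the median level 26 of 38 members were lower and 6 higher, beside 2723 lower and 2685 higher of 9103 genes. With a variance trend 5 members were higher, beside 3081 of all genes. The 1.5-fold rule, which makes no test, gave 14 lower and 1 higher. Leaving out each array gave counts of 0 to 0 in both directions at an adjusted p of 0.05, with adjusted p of the 25 lower genes between 0.0793 and 0.255; over all genes 5147 to 5769 then had an unadjusted p under 0.05. With the replicate number as a block, 21 members were lower and 1 was higher, against 1155 lower and 1488 higher of all genes. The labels do not say if same-numbered arrays were paired. Deviations of same-numbered arrays correlated at 0.04 across genes, which cannot tell how the samples were made. The cause of these differences was not tested.

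The changes that turned sign belonged to genes that had not passed. With the mean of all probe sets Acly gave 0.083, Ggps1 0.094 and Hsd17b7 -0.012. Without probe sets open to cross-hybridization Acly gave 0.15 and Hsd17b7 -0.085. Leaving out 1 array gave -0.095 to 0.025 for Acly, -0.12 to 0.015 for Ggps1, -0.025 to 0.10 for Hsd17b7, -0.015 to 0.13 for Ebp, -0.035 to 0.13 for Npc2 and -0.14 to 0.25 for Nr1h3. For genes near or below the array medians, signal over background limits what can be seen.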

Other observations

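Fatty acid oxidation and glycerolipid synthesis, the routes that burn fatty acids or build them into membrane lipids, were measured beside the pathway. Of 17 measured oxidation genes 5 were lower and 0 higher, with a median change of -0.22 on the log2 scale, against 14.4% lower and 14% higher of all genes. Acaa2, a thiolase of the mitochondrial cycle (-0.81 ± 0.08), Acads, which oxidises short chains (-0.56 ± 0.08), and Slc25a20, the carnitine carrier (-0.34 ± 0.07), fell furthest. Of 15 glycerolipid genes 2 were higher and 2 lower, with a median of -0.10. Cds2, of phosphatidylinositol synthesis, rose by 0.79 ± 0.07 and Lpin1, a phosphatidate phosphatase gene, by 0.47 ± 0.07, while the acyltransferase genes Agpat2 (-0.55 ± 0.08) and Agpat1 (-0.40 ± 0.07) fell.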
